A study of Homo sapiens with 4 samples.

Results

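Peaks of m6A meRIP-seq whose summit lay in the first 150 nt of an mRNA, within its 5′ UTR, were taken from 2 peak lists of OE-19 cells and are called TSS peaks below. The rule used the longest-CDS transcript of each protein-coding gene in GENCODE version 44 on hg38 and kept transcripts with at least 2 exons, and it used no strength of any peak. It found 614 TSS peaks among 24607 peaks in m6A IP replicate 1 (2.50%, 95% Wilson interval 2.31 to 2.70) and 156 among 19318 in m6A IP replicate 2 (0.808%, 0.691 to 0.944), which is 770 of 43925 peaks in all. OE-19 is a cell line of adenocarcinoma of the esophagogastric junction, and the labels give all 4 samples (2 m6A IP, 2 input) as this line with no treatment or genotype. Replicates 1 and 2 are not stated by the labels to come from separate cultures, and peaks of the input samples were not analysed here. The lists hold no expression values, so the identity of the line was not checked against marker genes, and they hold no read numbers, so the depth is unknown. All intervals and p-values below therefore cover counting error over peaks or transcripts only.

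N6-methyladenosine (m6A) is placed inside mRNAs by a METTL3 and METTL14 complex that prefers an adenosine within a GGAC core, most often in long internal exons and around the stop codon. The cap-adjacent base of an mRNA, when it is an adenosine, can carry a related mark, N6,2′-O-dimethyladenosine (m6Am), which is written by PCIF1. Antibodies raised against m6A also bind m6Am, so a peak near a transcript start can come from either mark, and the lists do not separate them.

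The transcript starts are shown here because m6Am needs an A at the first base that the cell uses, for which the annotated first base stands in. The genes are 6 of those whose TSS peaks were highest in both lists, and the capital marks the annotated first base, read from hg38 on the strand of the gene. They stand at chr16:67719287-67719316 (minus strand) for GFOD2, chr4:1009979-1010008 (plus) for FGFRL1, chr19:2476148-2476177 (plus) for GADD45B, chr5:176610127-176610156 (minus) for GPRIN1, chr18:62715541-62715570 (plus) for PHLPP1 and chrX:38033534-38033563 (plus) for SYTL5. All are in exon 1 and in the 5′ UTR. The first 3 start with A, and the others with G, C and T.
GFOD2: Agaaaccaggcggcgcgttcccggtggcgg
FGFRL1: Actttgcacgctcgcagccacgtttccgca
GADD45B: Accgttggtttccgcaacttcctggattat
GPRIN1: Gcgggagcgcggagccggcgctggggacgg
PHLPP1: Cataatcccctggaacggccgcgcacaacg
SYTL5: Tgttttctgcattctctcccagcggatctg

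Next, the stretch around the GGAC nearest the summit is shown for 5 of the highest genes, which had GGAC within 50 nt of the summit in both lists or, for NACC1, in replicate 1, since these letters are the preferred core of an internal m6A site. Capitals mark GGAC. The stretches are chr11:22193137-22193166 (plus) for ANO5, chr16:88570488-88570517 (plus) for ZC3H18, chr16:67719196-67719225 (minus) for GFOD2, chr19:2476235-2476264 (plus) for GADD45B and chr19:13118413-13118442 (plus) for NACC1. In ANO5 the adenosine of GGAC was the summit base of replicate 1, nt 68 of the transcript, and in GFOD2 it lay 7 nt before the replicate 1 summit. It was farther from that summit in the others, 29 nt before it in GADD45B and 39 nt before it in ZC3H18 and NACC1.
ANO5: cgagcaggcacagGGACaggtgcctggaga
ZC3H18: cggaagggccaagGGACgtcttctccacgc
GFOD2: ccgagaccccgtcGGACccatggtttccag
GADD45B: tcccgaaggtcttGGACgagcgctctagct
NACC1: gcggagcccgccgGGACcccccggagcgcg

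To explore where these peaks sat relative to the cap, summits were counted along the spliced transcript. The summits did not pile up at the first base. A summit is the caller's point and not the modified base, and the lists do not give the distance between them. In replicate 1, 381 of 614 summits (62.1%, 58.2 to 65.8) lay past nt 100 and up to nt 140, and the fullest stretches of 10 nt were nt 121 to 130 with 116 and nt 131 to 140 with 125. Only 45 summits (7.33%) lay in nt 1 to 50, and 13 in nt 1 to 25. The median summit of replicate 1 was nt 120, with quartiles of 94 and 132 and a range of 6 to 150.

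The summits of replicate 2 lay slightly farther in. Their median was nt 128, with quartiles of 97 and 142, and the fullest stretch was the last, nt 141 to 150, with 45 of 156 summits. The limit of 150 nt thus fell on the densest stretch of replicate 2 and past that of replicate 1. Just inside it, in nt 141 to 150, stood 58 summits in replicate 1 and 45 in replicate 2, and just outside, in nt 151 to 160 of the 5′ UTR, 58 and 31. "At the transcription start site" is therefore a loose name: most members had their summit over 100 nt downstream of the annotated start.

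**Figure D1:**
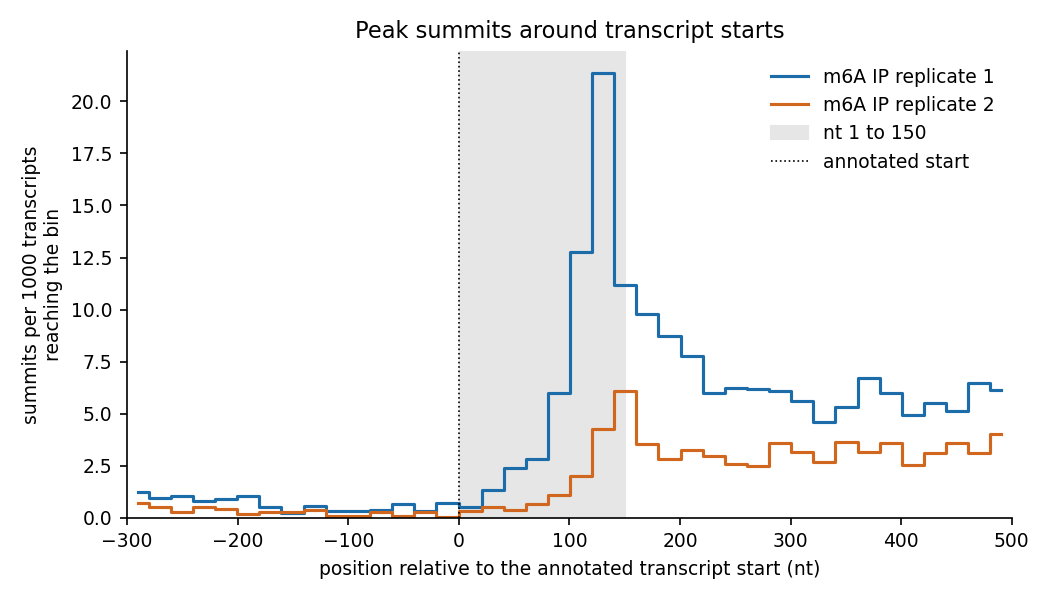
Summits per 1000 eligible transcripts that reach each 20-nt bin (vertical axis) against the position relative to the annotated start (horizontal axis, nt), with CDS positions included, for replicate 1 in blue and replicate 2 in orange; the band marks nt 1 to 150. Replicate 1 reaches 21.4 summits per 1000 transcripts in nt 121 to 140 and replicate 2 reaches 6.09 in nt 141 to 160. Both are near 0 upstream of the start, where only summits on none of the transcripts kept by the rule are counted.

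To look past the limits of the rule, summits were also counted in all regions of the transcripts. Counted over all 18067 eligible transcripts (at least 2 exons and a 5′ UTR), summits per 1000 transcripts in replicate 1 went from 0.498 in nt 1 to 20 to 21.4 in nt 121 to 140 and were back at 6.09 in nt 281 to 300. In replicate 2 they went from 0.332 to 6.09 in nt 141 to 160, against 3.60 in nt 281 to 300. Both lists thus held a crest of summits near the start, in nt 121 to 140 in replicate 1 and in nt 141 to 160, at the limit of 150 nt, in replicate 2. It was taller over its surroundings in replicate 1. Upstream of an annotated start, within 150 nt, stood 61 summits in replicate 1 and 27 in replicate 2. This upstream count took only summits that lay on none of the transcripts kept by the rule. In the first 150 nt, 363 summits of replicate 1 and 87 of replicate 2 fell past a short 5′ UTR and were no members. Counted outside the 5′ UTR alone, replicate 1 had 145 summits in nt 121 to 140, against 68 in nt 281 to 300, while replicate 2 had 34 in nt 141 to 160 and 44 in nt 281 to 300. The transcripts past their 5′ UTR grow in number along the transcript, and these counts were not divided by it. Replicate 1 thus had a crest outside the 5′ UTR even by count. For replicate 2, which also had 32 in nt 121 to 140 and 23 in nt 241 to 260, the counts do not decide it.

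**Figure D2:**
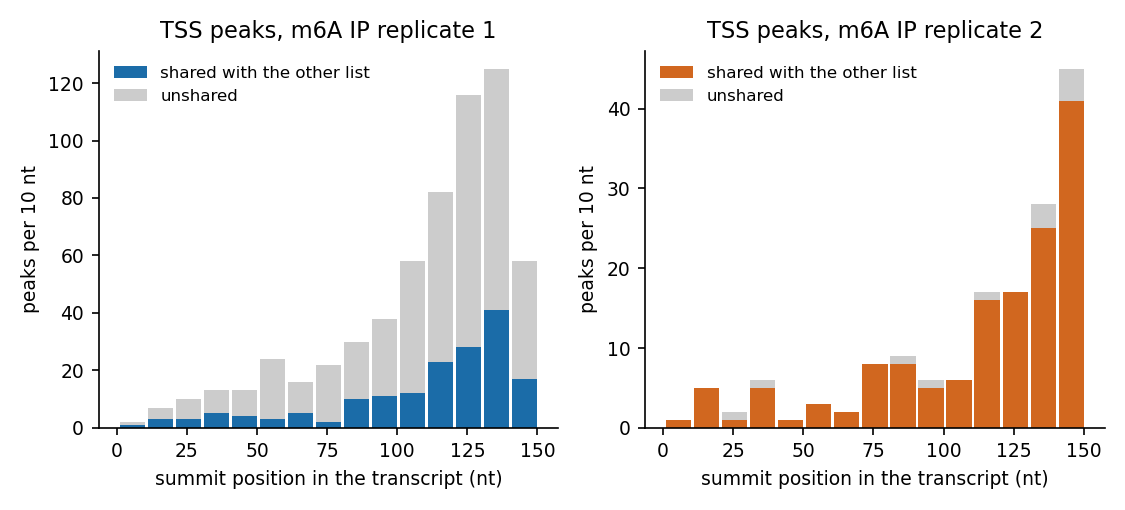
TSS peaks per 10 nt of transcript (vertical axis) by summit position (horizontal axis, nt), with peaks that overlap the other list in colour and unshared peaks in grey; the left panel is replicate 1 (n = 614) and the right panel replicate 2 (n = 156). In replicate 1 grey prevails in every stretch past nt 50 and the crest is at nt 131 to 140, while replicate 2 is mostly shared and fullest at its limit, nt 141 to 150.

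The peaks themselves covered the beginning of exon 1. The summit was in exon 1 in 605 of 614 members in replicate 1 and in 154 of 156 in replicate 2. The 5′ edge of the peak stood at a median of 37 nt past the annotated start in replicate 1 and 35 nt in replicate 2. It lay upstream of the start in 20.0% and 26.9% of members. The peaks had median widths of 186 and 227 bp, and the start codon lay within 34.2% and 32.7% of the peaks. On the genome, 44.6% of the peaks in replicate 1 and 44.9% in replicate 2 ran past the end of exon 1 into the intron.

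Transcripts with these peaks had long leaders, which the rule partly asks for, with a median 5′ UTR of 246 nt in replicate 1. The lists carry no strand. The summit also lay in an exon of another gene in 83 members (13.5%) of replicate 1 and 27 (17.3%) of replicate 2, and for these the gene assigned is uncertain. RefSeq gave a start for the genes of 488 and 124 members, and it was within 25 nt of the GENCODE start in 84.0% and 83.9% of them.

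Of the summits on the chosen transcripts, TSS peaks made up 3.78% (614 of 16253) in replicate 1 and 1.47% (156 of 10623) in replicate 2. The difference of 2.31 percentage points (1.93 to 2.68) exceeded counting error between the lists (two-sided Fisher's exact test, p = 5.85e-31), with 1 library on each side. Among peaks found in both lists, which are largely the same peaks and so must be close, the shares were 1.68% and 1.41%. In replicate 1, 446 of the 614 TSS peaks overlapped no peak of replicate 2.

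To ask how far the lists had these peaks in common, a peak was called shared when it overlapped a peak of the other list by at least 1 bp. In replicate 1, 168 of 614 TSS peaks were shared (27.4%, 24.0 to 31.0), against 56.7% of all peaks in that list and 61.6% of all summits on the chosen transcripts. The 5′ UTR peaks past nt 150 were shared in 49.4% (419 of 849) and the peaks within 200 nt of the stop codon in 70.9% (2861 of 4035). TSS peaks of replicate 1 were shared less often than both. The difference was -22.0 percentage points (-26.8 to -17.0; adjusted exact p = 3.03e-17) from the former and -43.5 points (-47.2 to -39.6; adjusted exact p = 2.19e-93) from the latter. These and the tests below are two-sided Fisher's exact tests with Benjamini-Hochberg adjustment, here over 4 tests. Replicate 2 held 156 TSS peaks, 453 other 5′ UTR peaks and 2913 stop codon peaks. A class with few peaks in replicate 2 leaves few to overlap. The comparisons of replicate 1 are therefore not separate from the difference in TSS share between the lists.

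Replicate 2, the shorter list, gave another picture. There, 144 of 156 TSS peaks were shared (92.3%, 87.0 to 95.5), against 74.6% of all peaks in that list and 96.1% of all summits on the chosen transcripts. The shares were 95.6% for the other 5′ UTR peaks and 97.2% for stop codon peaks. The difference from the former was -3.28 points, with an interval of -8.77 to 0.697 and an adjusted exact p of 0.143. It passed with Ensembl canonical transcripts (-5.94 points, adjusted exact p = 0.00593). That from stop codon peaks was -4.91 points (-10.2 to -1.61) and passed (adjusted exact p = 0.003), but not with fold enrichment of at least 5, with peak midpoints in place of summits or with summits within 100 bp as the definition of sharing.

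**Figure D3:**
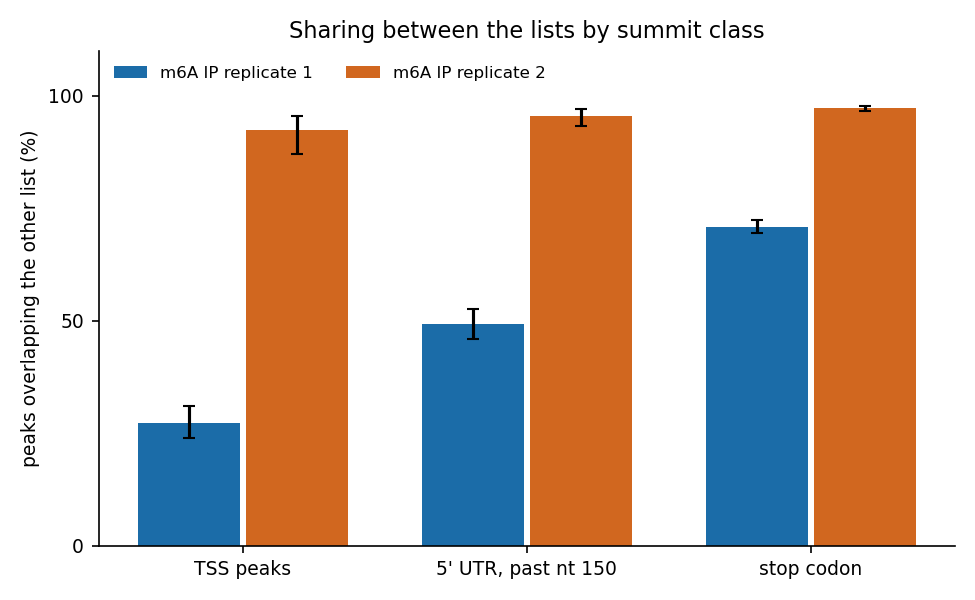
Share of peaks that overlap a peak of any class in the other list (vertical axis, %) for TSS peaks, 5′ UTR peaks past nt 150 and stop codon peaks (horizontal axis), with 95% Wilson intervals, for replicate 1 in blue and replicate 2 in orange. In replicate 1 the bars rise from 27.4% to 49.4% and 70.9%, while those of replicate 2 are at 92.3%, 95.6% and 97.2%.

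Shared members of replicate 1 were higher and wider. Their median fold enrichment was 6.22 (quartiles 3.98 and 8.65) against 4.48 (3.33 and 6.14) in the 446 unshared members, and their median −log10 q was 16.7 against 8.93. The median width was 270.5 bp against 166 bp. Split into 4 groups of rising fold enrichment, the shared part was 16.2%, 21.4%, 23.5% and 48.4%, so it was highest in the top group, and even there most were unshared. Their summits stood at the same place, with medians of nt 121.5 and 119.5. Replicate 2 did not show this for fold enrichment, with a median of 4.22 in its shared and 4.75 in its 12 unshared members. Its median −log10 q went the same way as in replicate 1, with 9.72 in shared and 5.01 in unshared members. The median width there was 229 bp against 211.5 bp. The parts of width and strength in sharing were not tested.

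Of the 446 unshared members of replicate 1, 278 (62.3%, 57.7 to 66.7) were on transcripts with a replicate 2 peak elsewhere. Over all 6248 unshared summits on the chosen transcripts of replicate 1 that share was 67.0% (65.8 to 68.1). Members with another peak on the same transcript in the same list made up 79.6% in replicate 1 and 80.8% in replicate 2, and over all summits on the chosen transcripts this held for 79.4% and 68.2%. Where a transcript had a TSS peak and a stop codon peak, the TSS peak was the higher in 103 of 257 transcripts in replicate 1 and in 22 of 61 in replicate 2. The median difference in log2 fold enrichment, TSS minus stop codon peak, was -0.25 and -0.24.

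Next, a peak of each list was paired with its largest overlap in the other where the choice was mutual. There were 98 pairs in which both were TSS peaks. Fold enrichment was higher in replicate 1 in 86 of them, with a median log2 ratio of 0.51 (quartiles 0.13 and 0.90). The same ratio was 0.46 in the 353 pairs of other 5′ UTR peaks and 0.46 in the 2519 pairs at stop codons, so the TSS pairs followed the general offset between the lists. Across the 98 pairs the log2 values gave Pearson's r = 0.68 and Spearman's rho = 0.69, a description over peaks of the same libraries.

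The positions of the summits were compared in the same way. In these 98 pairs, the replicate 2 summit was farther downstream in 65 and farther upstream in 28, with a median shift of 7.5 nt. The window limits such shifts, and which summit it is applied to sets their direction in part. Chosen by the replicate 1 summit alone, 147 pairs had a median shift of 15 nt, and chosen by the replicate 2 summit alone, 129 pairs had 1 nt. Over all 520 pairs in the first 300 nt it was 4 nt, and over the 2519 stop codon pairs it was 0 nt.

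**Figure D4:**
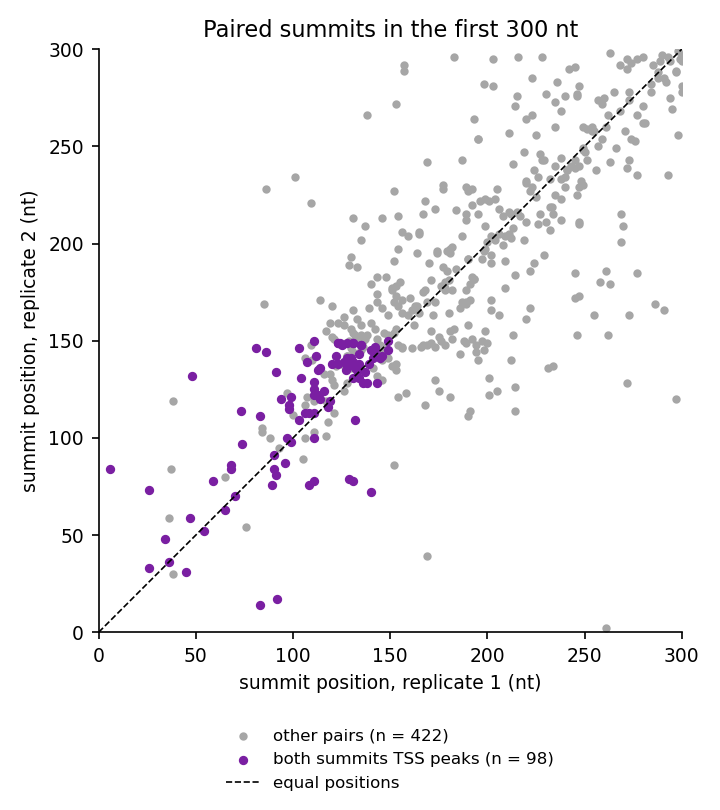
Summit position in replicate 2 (vertical axis, nt) against that in replicate 1 (horizontal axis, nt) for 520 paired peaks with both summits in the first 300 nt; pairs of TSS peaks are purple, other pairs grey, and the dashed line marks equal positions. Of the 98 purple points, 65 are above the line and 28 below.

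The strength of TSS peaks was close to that of other peaks in the leader. Median fold enrichment, the authors' ratio over the caller's background, was 4.78 (quartiles 3.49 and 6.89, range 1.64 to 21.8) in replicate 1 and 4.25 (3.09 and 5.60, range 1.62 to 12.6) in replicate 2. The other 5′ UTR peaks had 4.69 and 3.97, and stop codon peaks 5.48 and 4.72. They were GC-rich: the median GC content was 71.1% (quartiles 65.7 and 76.1) in replicate 1 and 70.1% (64.5 and 75.0) in replicate 2. Other 5′ UTR peaks had 68.2% and 65.2%, and stop codon peaks 54.5% and 53.9%. The first 150 nt of the member transcripts had a median GC of 70.7% and 70.0%, against 65.3% in all 9037 eligible transcripts with a 5′ UTR of at least 150 nt. GC content moved with the class, and its part in peak strength or sharing was not tested.

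To ask whether these peaks carried the core of an internal m6A site, GGAC was searched in the sense strand of the spliced transcript, up to 50 nt on each side of the summit. It was there in 289 of 614 members of replicate 1 (47.1%, 43.2 to 51.0) and in 83 of 156 of replicate 2 (53.2%, 45.4 to 60.9). A window of the same size centred at nt 120 held GGAC in 39.5% of 10513 eligible transcripts. Other 5′ UTR peaks had it in 48.2% and 52.3%, and stop codon peaks in 54.3% and 55.4%. The members thus had GGAC about as often as other leader peaks.

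Of the 6 motif comparisons, the difference from stop codon peaks in replicate 1 passed, at -7.26 percentage points (-11.5 to -3.01; adjusted exact p = 0.00494). It did not pass within 25 nt (-4.54 points, adjusted exact p = 0.153), within 100 nt, at fold enrichment of at least 5 or with midpoints. The other 5 had an adjusted exact p of 1. Against other 5′ UTR peaks the difference was -1.11 points (-6.27 to 4.07) in replicate 1 and 0.887 (-8.16 to 9.82) in replicate 2. Shared minus unshared TSS peaks gave -2.52 points (-11.2 to 6.32) and 3.47 (-22.5 to 29.3), the latter against 12 unshared peaks.

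Other letters put the GGAC share beside the base composition. GTCC, which is GGAC read on the opposite strand, was within 50 nt of 41.0% and 39.7% of the summits, against 35.6% of the windows at nt 120 and 28.2% and 28.4% at stop codons. The related cores were rarer at TSS peaks than at stop codons: GAAC was in 19.9% and 16.7% against 34.1% and 34.6%, AGAC in 26.2% and 34.0% against 40.9% and 40.7%, and AAAC in 11.1% and 12.2% against 29.0% and 30.2%. This was not particular to TSS peaks. Other 5′ UTR peaks were below stop codons as well, with GAAC in 23.8% and 26.9%, AGAC in 30.5% and 35.5%, and AAAC in 16.3% and 22.1%. The windows at nt 120 had GAAC in 23.4%, AGAC in 29.1% and AAAC in 19.1%. Where GGAC was present, its adenosine closest to the summit stood at a median of 2 nt downstream in replicate 1 and 1 nt upstream in replicate 2. The quartiles were -18 and 22 nt in replicate 1 and -18.5 and 21 nt in replicate 2. From the start of the transcript to 50 nt past the summit, 243 members (39.6%) of replicate 1 and 52 (33.3%) of replicate 2 held no GGAC at all.

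To address the cap-adjacent base, the annotated first base of each transcript was read. It was A in 311 of 613 transcripts with a TSS peak in replicate 1 (50.7%, 46.8 to 54.7) and in 85 of 156 in replicate 2 (54.5%, 46.7 to 62.1). In transcripts with peaks elsewhere only, it was A in 42.3% (2874 of 6788) and 42.7% (2464 of 5772), and over all eligible transcripts in 45.3%. Transcripts with no peak in either list had A in 47.0% (4956 of 10535), which lies within the intervals of the members in both lists. A was thus more common with TSS peaks than with peaks elsewhere only. The difference was 8.39 percentage points (4.27 to 12.5; adjusted exact p = 0.00029, over 4 tests) in replicate 1 and 11.8 (3.87 to 19.5; adjusted exact p = 0.00801) in replicate 2. No test was run against transcripts with no peak. Transcripts with a 5′ UTR peak past nt 150 and no TSS peak had A in 44.3% and 43.7%. Limited on both sides to 5′ UTRs of 150 nt or more, a comparison added after seeing the data, the differences were 9.01 points (4.34 to 13.6) and 16.8 (8.12 to 24.9).

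These differences came with the crest of summits. With the window set to 100 nt in place of 150, they turned to -1.35 points in replicate 1 and -10.5 in replicate 2, and neither passed (adjusted exact p = 0.758 and 0.431). Members with the summit in nt 1 to 50 had A in 33.3% (15 of 45, 21.4 to 47.9) in replicate 1 and 20.0% (3 of 15, 7.05 to 45.2) in replicate 2. In nt 51 to 100 the shares were 44.6% (58 of 130) and 39.3% (11 of 28). Past nt 100 they were 54.4% (239 of 439, 49.8 to 59.0) and 62.8% (71 of 113, 53.6 to 71.2). This split was made after the values were seen and is given without a test. In replicate 2 the first-base difference also did not pass with fold enrichment of at least 5, with midpoints, or when A at any annotated start of the gene within 150 nt was counted (6.29 points, adjusted exact p = 0.216).

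**Figure D5:**
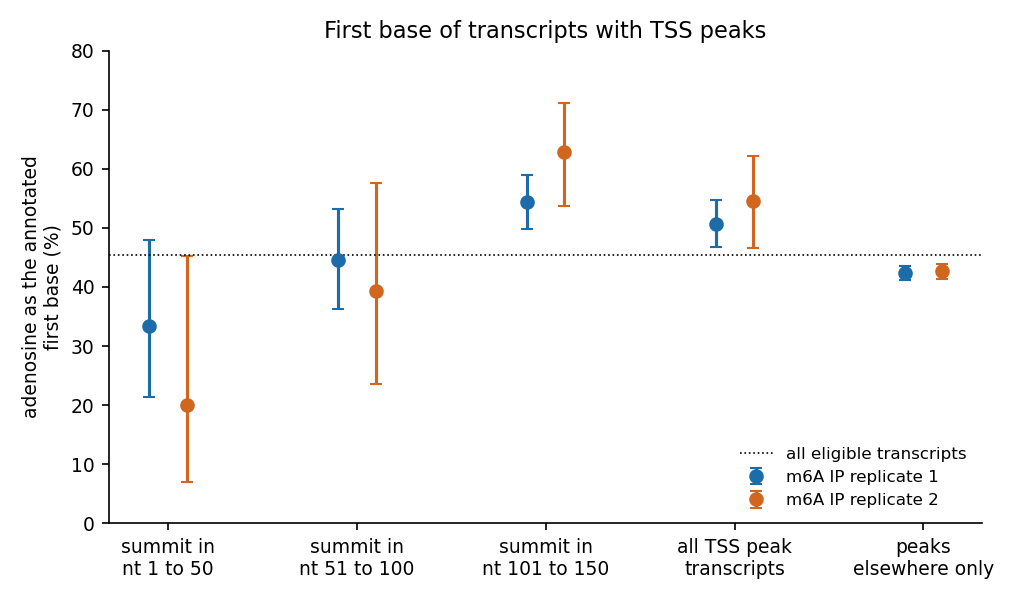
Share of transcripts whose annotated first base is A (vertical axis, %) for TSS peaks by stretch of the summit, for all transcripts with a TSS peak and for those with peaks elsewhere only (horizontal axis), with 95% Wilson intervals, in blue for replicate 1 and orange for replicate 2; the dotted line marks all eligible transcripts (45.3%). The share goes from 33.3% and 20.0% with the summit in nt 1 to 50 to 54.4% and 62.8% past nt 100.

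Strength differed little by first base in both lists. Members starting with A had median values of 4.81 and 4.23 (fold enrichment, replicates 1 and 2), and those starting with G 4.74 and 4.42. Their summits were at a median of nt 123 and 135 with A, and of nt 118 and 117 with G. The share of A was 54.8% in shared and 49.3% in unshared members of replicate 1, a difference of 5.43 points (-3.42 to 14.1; adjusted exact p = 0.24). In replicate 2 it was 52.8% and 75.0%, the latter in 9 of 12 peaks (difference -22.2, -40.3 to 7.11; adjusted exact p = 0.24). A preceded by C, the usual initiator step, opened 39.5% and 42.9% of the member transcripts against 32.9% of all eligible ones. A was as common in members of replicate 1 without GGAC up to 50 nt past the summit (50.2% of 243) as in those with it (51.2% of 371), while in replicate 2 the shares were 44.2% of 52 and 59.6% of 104.

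Genes followed the peaks, as nearly every member was the only TSS peak of its transcript. TSS peaks were found on 613 of 18067 eligible genes in replicate 1 (3.39%), on 156 in replicate 2 (0.863%) and on 0.559% of them in both. The common genes are 16.5% of those in replicate 1 and 64.7% of those in replicate 2, and either list held 668. No gene had both summits in the first 25 nt.

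Among the genes in both lists, 12 were named by the highest geometric mean of fold enrichment. GPRIN1, a G protein-regulated inducer of neurite outgrowth, had 16.7 in replicate 1 and 8.96 in replicate 2, with summits at nt 149 and 150. PHLPP1, a phosphatase that removes the activating phosphate of AKT, had the highest value of all TSS peaks in replicate 1, 21.8, and 4.40 in replicate 2, at nt 59 and 78. FGFRL1, a fibroblast growth factor receptor-like protein without a kinase domain, had 15.5 and 5.60, at nt 135 and 148. PHLPP1 and FGFRL1 differed most between the lists among the 12.

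Others of the 12 were nearly level. ZC3H18, a zinc finger protein that links the nuclear cap-binding complex to RNA decay, had 10.3 and 10.1, with summits at nt 140 and 145. SYTL5, a synaptotagmin-like RAB effector, had 11.4 and 10.9, at nt 128 and 141. GADD45B, a growth arrest and DNA damage response gene, had 9.63 and 8.89, at nt 132 and 109. The remaining names were ANO5 (13.5 and 7.70), of the anoctamin family, NACC1 (13.3 and 7.70), a BTB domain regulator of transcription, GFOD2 (11.7 and 8.04), CLBA1 (13.1 and 7.01), the homeobox gene EVX1 (12.1 and 8.37) and ENSG00000258691 (10.9 and 12.6). The last 2 lay in an exon of another gene. Fold enrichment was higher in replicate 1 in 11 of the 12, and the summits were within 25 nt of each other in 11.

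The first bases of these 12 were A in 6, G in 3, C in 2 and T in 1. Of their transcripts, 11 had another peak in replicate 1 and 10 in replicate 2. Being chosen for high TSS peaks, they say nothing of the rank of such peaks in general. GFOD2 had a higher peak elsewhere, a CDS peak of 22.3 in replicate 1 at nt 1120.

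Unshared peaks could be high as well. The 6 highest in replicate 1 were on PTPN21 (14.0), a protein tyrosine phosphatase, FAM72D (13.2), BCAR1 (13.1), the p130Cas scaffold of focal adhesions, ANKRD11 (12.7), an ankyrin repeat chromatin regulator, SCEL (10.8), the sciellin of cornified epithelia, and LNX1 (10.3), an E3 ligase of NUMB. Their summits were at nt 96 to 141, and all 6 transcripts started with A. FAM72D has near-identical paralogs, so its reads may come from another copy. The 6 highest unshared peaks of replicate 2 were lower: PPP1R13B (8.41), which encodes the p53 partner ASPP1, the deubiquitinase gene USP49 (7.01), the stress kinase gene MAP3K5 (5.29), the phosphatase gene PTPN4 (5.17), C1QL1 (5.08) and ZNF316 (4.83). Of these, 5 started with A and USP49 with G.

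Among 21 eligible m6A and m6Am enzymes and readers, 1 had a TSS peak in each list, namely ZC3H13 in replicate 1 and PCIF1 in replicate 2. This is 4.76% in each list, against 3.39% and 0.863% of all eligible genes. Any peak was found on 17 of the 21 in replicate 1 and on 14 in replicate 2. Among genes with any peak in replicate 1, the share with a TSS peak was 5.88%, against 8.28% over all eligible genes with a peak. ZC3H13, a subunit of the m6A writer complex, had an unshared peak of 8.53 with its summit at nt 119. PCIF1, the m6Am writer itself, had a peak of 5.37 with its summit at nt 11, which overlapped a replicate 1 peak that is no member, and its annotated first base is G. Both lay in an exon of another gene as well, so their assignment is uncertain. Among 8 G1-S genes, chosen by the study for other assays in these cells, 1 had a TSS peak in replicate 1. This is 12.5%, against 3.39% of all eligible genes, and 0 of the 8 had one in replicate 2. In each list, 4 of the 8 had any peak. The gene with the TSS peak was E2F3, a transcription factor of S phase entry (6.99 at nt 113), beside a higher stop codon peak of 15.8.

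Immediate early genes, which cells switch on quickly after a stimulus, had 3 of 13 eligible members with a TSS peak in either list, against 3.70% of all eligible genes. Any peak was found on 11 of the 13 in replicate 1 and on 10 in replicate 2. Among those of replicate 1, 18.2% had a TSS peak, against 8.28% of all eligible genes with a peak. EGR1 had it in both lists, with 7.30 at nt 111 in replicate 1 and 10.4 at nt 150 in replicate 2. FOS had it in replicate 1 (4.63 at nt 134) and ATF3 in replicate 2 (4.67 at nt 147). EGR1 was thus an exception to the usual order, with the higher value in replicate 2.

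The other lists were described by counts beside the background of 3.39% in replicate 1 and 0.863% in replicate 2. None of 82 cytosolic ribosomal protein genes had a TSS peak in either list, but just 6 of them had any peak in replicate 1 and 4 in replicate 2, so these counts say little about transcript starts. Mitochondrial ribosomal proteins had 1 of 78 (MRPS21), the respiratory chain 1 of 99 (NDUFB11), and the cap binding, capping and decapping genes 0 of 18. Genes with EIF or EEF symbols had 8 of 66 in replicate 1 (12.1%) and 1 in replicate 2 (1.52%). They were the initiation factor genes EIF5B, EIF1B, EIF5, EIF2S2 and EIF1AX together with EIF1AD, the stress kinase gene EIF2AK3 and EIF4A3, and the last was the gene of replicate 2. RAB GTPases, which direct vesicle traffic, had 8 of 60 (13.3%) and 1 (1.67%).

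Larger families were nearer the background in replicate 1, with zinc finger genes at 17 of 504 (3.37%) and solute carriers at 11 of 363 (3.03%). In replicate 2 they had 8 (1.59%) and 3 (0.826%), and 4 and 3 of these genes were in both lists. Chromatin regulators had 5 of 56 and 2, the KLF, SP, EGR, SOX, FOX and HOX factors 7 of 113 and 4, and the MAP kinase cascade 3 of 43 and 2. None of the 43 was in both lists, where 0.559% of all eligible genes were, and MAP3K11 missed it narrowly, with paired summits at nt 154 and 121. Expression was not used, so these counts do not separate how often a family was marked from how often its transcripts were present.

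Some members of these lists that recurred in both replicates are given with their values, and were singled out after these were seen. EIF4A3, a helicase of the exon junction complex, had 3.28 at nt 111 in replicate 1 and 2.99 at nt 129 in replicate 2. RAB17, a RAB of epithelial sorting, had 4.77 at nt 136 and 2.59 at nt 128. ARID1A, a subunit of the BAF remodeller, had 4.99 at nt 145 and 4.90 at nt 141, and the histone demethylase gene KDM5A had 3.55 at nt 111 and 3.50 at nt 78. Among transcription factors, SP4 had 5.77 at nt 140 and 4.99 at nt 72, SP6 had 7.49 at nt 128 and 2.65 at nt 149, and FOXO3 had 3.96 at nt 91 and 3.53 at nt 81. None of these genes was below its replicate 2 value in replicate 1.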

How the data were processed

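m6A meRIP-seq peak lists of 2 IP samples of OE-19 cells were analysed; the 2 input samples entered no comparison. Per the study's methods, fragmented total RNA was immunoprecipitated, whereas the labels describe UV-fixed, lysed cells. Reads were mapped to hg38 with TopHat2 per the methods, whereas the submitters' processing notes name fastp, HISAT2 and MACS2. MACS2 called peaks on each sample. Releases, and whether input served as control, are not given in the sources used here. The authors deposited the fold enrichment of each peak, a ratio over the caller's background. They also deposited −log10 of the p-value and q-value. The deposited score was not used.

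Summits (peak start plus offset) were placed on GENCODE version 44 transcripts. The members and gene lists were chosen with earlier results of these data known. Named genes were, 1 peak per gene, the 12 highest in both lists, the 6 highest unshared peaks of each list, genes with both summits in the first 25 nt, and all members of the m6A, G1-S, immediate early and cap lists. Tests were two-sided Fisher's exact tests with Benjamini-Hochberg adjustment and a threshold of 0.05; intervals are 95% Wilson and, for differences, Newcombe intervals. Analyses used Python 3.11.15, pandas 2.3.3, scipy 1.17.1, statsmodels 0.14.6 and pysam 0.24.0, and were tested on simulated peaks. Precision rests on the number of peaks. Alternatives changed the window, transcript, thresholds, summit, overlap, motif window and first base.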

Additional observations from a re-analysis of the deposited data

How the results depend on the processing

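The 23 results were recomputed under 15 other settings, list by list, and 1 comparison added after seeing the data. The count of genes in either list was also taken with a replicate left out, and the difference in TSS share among shared peaks only. Of 227 values, 169 kept their direction and side of the threshold, moved by less than the spread or, for counts, stayed within a fixed ratio. TSS peaks of replicate 1 were shared less often than the other classes, and A at the first base was more common in replicate 1, past the threshold under every alternative run except, for the latter, the 100 nt window. The counts of TSS peaks were 175 and 43 with a window of 100 nt, 253 in replicate 2 with 200 nt, 282 and 55 at fold enrichment of at least 5, and 96 in replicate 2 with midpoints. Genes in either list numbered 195 with 100 nt and 301 at fold enrichment of at least 5, and 156 to 613 with a replicate left out. Median GC content (%) was 69.6 and 68.8 with 100 nt, 71.3 in replicate 2 without summits in exons of another gene, and 72.3 and 71.3 within 50 nt of the summit. Median fold enrichment was 4.40 and 4.91 with 100 nt, 3.79 in replicate 2 with 200 nt, 5.34 and 4.67 at q of 1e-05 or less, 7.28 and 6.85 at fold enrichment of at least 5, and 5.27 in replicate 1 with lists of equal length. The difference in TSS share between lists was 0.269 points among shared peaks, which are largely the same peaks and so must be close.

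Sharing of replicate 2 against other 5′ UTR peaks was -5.94 points with Ensembl canonical transcripts (adjusted exact p = 0.00593) and 2.05 with summits within 100 bp. Against stop codon peaks it lost its call at fold enrichment of at least 5 (-2.33), with midpoints (-3.49) and with summits within 100 bp (-2.48). GGAC against stop codon peaks in replicate 1 lost it at fold enrichment of at least 5 (-5.00), with midpoints (-2.67), within 25 nt (-4.54) and within 100 nt (-4.90), and in replicate 2 turned to 0.699 with canonical transcripts and 3.56 at fold enrichment of at least 5. GGAC against other 5′ UTR peaks, which never passed, turned in replicate 1 to 0.545 with 200 nt, 0.242 at fold enrichment of at least 5, 3.81 with midpoints, 0.288 within 25 nt and 0.546 within 100 nt, and in replicate 2 to -1.49 with a window of 100 nt, -1.31 with 200 nt, -5.55 with midpoints and -0.611 within 100 nt. GGAC in shared minus unshared peaks turned in replicate 1 to 0.734 with 200 nt, 5.31 at q of 1e-05 or less and 6.97 at fold enrichment of at least 5, and in replicate 2 to -7.06 without other genes' exons and -7.78 with midpoints.

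A at the first base turned to -1.35 and -10.5 with 100 nt, and in replicate 2 lost its call at fold enrichment of at least 5 (8.22), with midpoints (4.87) and at any annotated start (6.29). In shared minus unshared peaks it was -13.4 with 100 nt, -7.82 with midpoints, -2.55 at any annotated start and, past the threshold, 10.0 within 2 nt of the start (adjusted exact p = 0.0143) in replicate 1, and 2.60 at q of 1e-05 or less in replicate 2. The cause of these changes was not tested, and stricter settings also leave fewer peaks. No paired analysis was possible because the input samples, the only group sharing replicate numbers with the IP samples, have no peak list here.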
